A study of Mus musculus with 4 samples.

Results

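Neutrophils made up a large and variable share of the immune cells of 4T1 tumours. Calprotectin transcripts filled most of their pooled counts over the genes analysed, though less than 50% in the median cell. The cells described here are all those that the deposited annotation named neutrophil and that had a column in the count table. They numbered 6637 of the 16383 cells with counts, and 12622 of the 45781 annotated barcodes carried the name. The host mice were BALB/c, the strain from which the mammary carcinoma line 4T1 derives. Tumours of 1 group were wild-type and those of the other were Mif-depleted, Mif being a cytokine named for holding macrophages in place. Each of the 2 groups had 2 samples, and each sample combined 3 dissociated tumours that were sorted for cells positive for CD45 and negative for propidium iodide, then run as 10X droplet libraries. All 4 samples therefore shared the host strain, the carcinoma line, the enzymatic dissociation, the removal of red and dead cells and the CD45 sort. The labels give the age of no mouse. The short sample names are CON and sgMif, and no label describes further how Mif was depleted.

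Barcodes ended in a suffix from 1 to 4, and no label tied a suffix to a sample. Wild-type and Mif-depleted tumours were therefore not compared, and suffix 1 (5712 neutrophils) and suffix 2 (925 neutrophils) are described apart as samples of unknown group. With 1 library on each side there is no replicate check, and intervals in square brackets are exact 95% intervals that cover counting error only. Neutrophils took 43.4% of the annotated cells of suffix 1, 27.0% of suffix 2, 25.9% of suffix 3 and 11.1% of suffix 4. None of the Clopper-Pearson intervals of suffixes 1, 2 and 4 overlapped, and those of suffix 2 [26.2, 27.8] and suffix 3 [25.0, 26.8] did. In suffix 2, 28.6% of the neutrophils had counts, and none of suffixes 3 and 4 did. Pairs of suffixes shared 0 to 5 neutrophil barcode sequences. The table analysed here covered 4099 genes of chromosomes 1 to 4 and part of 5, so the UMIs (molecules marked by a unique identifier) counted in a cell are a part of its depth. Neutrophils had a median of 1120 counted UMIs in suffix 1 and 976 in suffix 2, against 1412 and 2184.5 in all other cells. Without S100a8 and S100a9 the neutrophil medians were 595 and 583 UMIs, with a UMI of 282 and 269 genes.

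Neutrophils are short-lived phagocytes that the bone marrow releases under granulocyte colony-stimulating factor (G-CSF), and 4T1 tumours are known for driving their expansion through that cytokine. During maturation they load successive sets of granules with proteases and antimicrobial proteins and acquire the chemokine receptors that carry them into tissue. In tumours they can also make interleukin-1, prostaglandins and other mediators that act on T cells and vessels. Calprotectin, the heterodimer of S100A8 and S100A9, is an abundant cytosolic protein of neutrophils that binds calcium and withholds zinc and manganese from microbes.

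The S100a8 and S100a9 genes lie close together on chromosome 3 (GRCm38, 90668978 to 90670035 on the plus strand and 90692632 to 90695721 on the minus strand). Levels below are UMIs per 10000 counted UMIs. S100a8 stood at 2545 in the neutrophils of suffix 1 and 2784.5 in those of suffix 2, against 181 and 85.9 in all other cells. S100a9 stood at 3305 and 2986 against 239 and 88.9. Together they took 58.5% and 57.7% of the pooled counted UMIs of neutrophils. In B cells, a type not known to make them, they took 1.91% and 1.40%. These are shares of the genes analysed, which include both, and shares of all RNA in a cell were not measured.

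The RefSeq sequence upstream of both genes (GRCm38.p6) is shown because these 2 transcripts set the scale of every other level in neutrophils. Each window ends at the last base before the GENCODE start of the gene and runs 5′ to 3′ on the gene's strand. Capitals mark matches, on either strand, to TTNNGNAA, a form of the site bound by C/EBP factors, and to GAGGAA, the core bound by PU.1. Both factors drive myeloid differentiation.
S100a8, chr3:90668821-90668977, plus strand: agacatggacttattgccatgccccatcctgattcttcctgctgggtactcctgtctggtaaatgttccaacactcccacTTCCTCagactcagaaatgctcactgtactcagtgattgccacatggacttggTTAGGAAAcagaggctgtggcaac
S100a9, chr3:90695722-90695971, minus strand: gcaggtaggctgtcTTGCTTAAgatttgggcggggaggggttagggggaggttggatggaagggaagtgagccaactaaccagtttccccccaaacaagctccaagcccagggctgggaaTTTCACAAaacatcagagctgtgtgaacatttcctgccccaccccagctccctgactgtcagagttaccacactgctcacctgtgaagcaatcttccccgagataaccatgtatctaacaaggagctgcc
The S100a8 window of 157 bases held 1 C/EBP match, 16 bases from its end, and 1 PU.1 match, 71 bases from its end. The S100a9 window of 250 bases held 2 C/EBP matches. Among 32851 mouse promoter windows cut to 157 bases, 27.1% held the C/EBP letters and 15.3% the PU.1 letters, and at 250 bases 36.8% and 23.3% did. The motifs and the genes shown were chosen after matches had been seen, and a match describes letters, not binding.

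Cells differed widely in how much of their counted RNA came from S100a8 and S100a9. The median share of a neutrophil's UMIs that came from S100a8 and S100a9 was 49.3% in suffix 1 and 42.2% in suffix 2, with 5th and 95th percentiles of 9.05% and 73.1%, and of 4.86% and 76.9%. In suffix 1, 94.5% of neutrophils exceeded a share of 10% and 48.5% reached 50%. In suffix 2, 89.3% and 38.3% did. The distribution was broad and continuous in both suffixes, from under 1% to 82.5% and 83.1%. The median in B cells was 0.690% and 0.187%, and 94.3% and 91.4% of B cells lay under 5%.

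**Figure D1:**
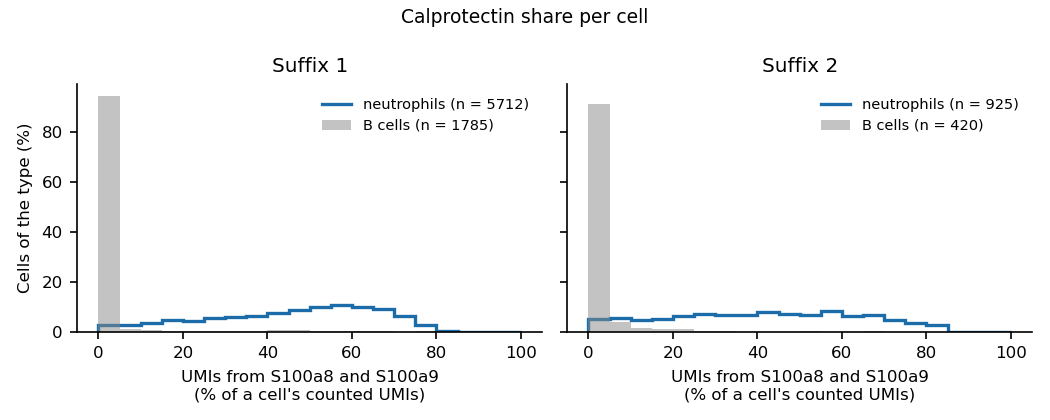
Share of a cell's counted UMIs (%, x axis) that came from S100a8 and S100a9, in bins of 5 percentage points, against the percentage of cells of the type (y axis), for neutrophils (line) and B cells (grey bars) of suffix 1 (left) and suffix 2 (right). Neutrophils spread from under 5% to above 80%, while 94.3% and 91.4% of B cells lie in the lowest bin.

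The name held against the other defining markers. G0s2, the gene of an inhibitor of the lipase that starts triglyceride breakdown, stood at 88.3 in the neutrophils of suffix 1 against 8.23 in other cells, and at 132 against 6.15 in suffix 2. Csf3r, the G-CSF receptor gene, was found at 23.0 against 3.66 (log2 ratio 2.65 [2.61, 2.69]) and at 20.9 against 1.41 (3.89 [3.78, 3.99]). Cxcr2, the receptor for the chemokines that draw neutrophils from marrow to tissue, stood at 11.3 against 1.27 and 8.86 against 0.437. The authors may have named the cells by these genes, so their levels check the name and are no independent finding. When each cell was thinned to 400 UMIs of genes other than S100a8 and S100a9, which kept 4831 and 760 neutrophils and left out 881 and 165, a Csf3r UMI was found in 84.7% and 80.9% of neutrophils and in 2.98% and 4.01% of B cells. For Cxcr2 the shares were 60.4% and 51.6% in neutrophils and 0.745% and 1.6% in B cells.

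Markers of other cell types were low but present. The macrophage list, with 5 measured genes such as C1qa and Mrc1, summed to 7.05 and 8.13 per 10000 UMIs in neutrophils, against 491 and 472 in cells named Macro_Maf. The monocyte list, with 4 measured genes, summed to 1.67 and 3.38, against 168 and 163 in Mono_Ly6c2. The T cell list, with 5 genes, summed to 0.721 and 0.740, against 172 and 172 in regulatory T cells. No measured marker of these 3 lists was at 0 in neutrophils. At least 2 UMIs of the macrophage list were found in 22.3% and 21% of neutrophils, of the monocyte list in 3.05% and 6.81%, and of the T cell list in 0.683% and 0.865%. The eosinophil and mast cell lists, with 1 gene each, stood at 0.00185 each in suffix 1, and at 0 and 0.0123 in suffix 2. Doublets were not called, and the labels do not say whether they were removed. The part of these transcripts in the results was not tested beyond the values without such cells given below.

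To set neutrophils beside every other cell of their suffix, a gene was called at a ratio of 2-fold or more with at least 50 UMIs over both sides. Of 3514 genes in suffix 1, 107 (3.04%) were called higher in neutrophils and 2736 (77.9%) lower, and of 3087 genes in suffix 2, 111 (3.6%) and 2400 (77.7%) were. Of 3083 genes tested in both suffixes, 71 were higher in both and 2303 lower in both, and 0 were called in opposite directions. The median log2 ratio over all genes was -2.35 and -2.18. Calprotectin takes up the denominator, and leaving S100a8 and S100a9 out of all totals raised neutrophil ratios by 1.21 and 1.22 on the log2 scale. A gene at a log2 ratio of about -1.2 is thus at an even level in the remaining RNA, and values on that second scale are marked as without calprotectin. These counts describe 1 set of libraries, and no call is tested against replicates. Counts of listed genes below are to be read beside the shares of all genes called higher and lower.

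**Figure D2:**
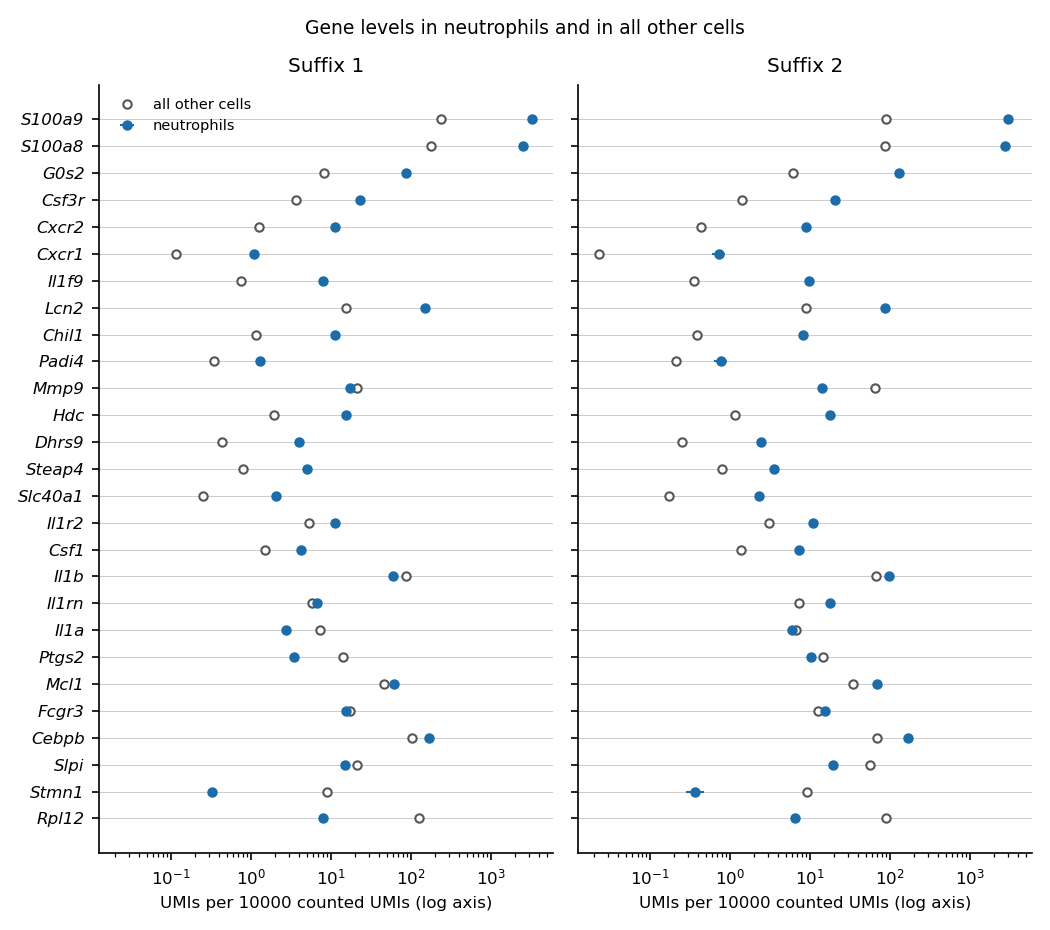
Levels of 27 genes in UMIs per 10000 counted UMIs (log axis) in neutrophils (filled, with exact Poisson 95% intervals where wider than the symbol) and other cells (open) of suffix 1 (left) and suffix 2 (right). The neutrophil markers, Lcn2, Chil1 and Hdc lie right of the open symbols in both suffixes, Il1b lies on different sides in the 2 suffixes, and Stmn1 and Rpl12 lie left in both.

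Granule genes were mixed. Of the 7 measured granule and antimicrobial genes, 3 were called higher and 0 lower in suffix 1, and of 6 with enough UMIs in suffix 2, 4 were higher and 2 lower. Lcn2, whose product binds bacterial siderophores and sits in secondary granules, reached 151 against 15.4 and 87.6 against 8.95 (log2 ratio 3.29 in each suffix). Chil1, a chitinase-like secondary granule gene, stood at 11.2 against 1.16 and 8.13 against 0.388. Padi4, which citrullinates histones when neutrophils release extracellular traps, stood at 1.32 against 0.344 and 0.765 against 0.213. The ficolin gene Fcnb, known from immature neutrophils, was near the floor, with levels of 0.0519 and 0.0494. Chil3, also known from immature neutrophils and from monocytes, was at 3.01 against 4.57 (log2 ratio -0.61, and 0.60 without calprotectin) and at 1.04 against 0.494 in suffix 2, where the log2 ratio of 1.07 was -0.093 against macrophage and monocyte names alone. The gelatinase gene Mmp9 stood at 17.3 against 21.1 and 14.2 against 65.1. Against cells with macrophage and monocyte names alone its log2 ratios of -0.29 and -2.19 were 1.85 and 1.75. A Mmp9 UMI was found in 65.1% and 61.8% of thinned neutrophils.

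Receptor genes went both ways. Among all genes, 3.04% and 3.6% were called higher and 77.9% and 77.7% lower. Of 10 chemotaxis and cytokine receptor genes, 3 and 2 were lower. In each suffix 6 were higher, 2 of them the defining markers Csf3r and Cxcr2. Beside Csf3r and Cxcr2 these were Cxcr1 (1.09 against 0.117 and 0.728 against 0.0230), the platelet-activating factor receptor gene Ptafr (12.5 against 4.91 and 14.7 against 4.49), Il18rap (2.03 against 0.703 and 1.84 against 0.583) and Il1r2. Il1r2 encodes the decoy receptor that binds interleukin-1 without signalling, and it stood at 11.4 against 5.40 and 10.9 against 3.12. Against macrophage and monocyte names alone, its log2 ratios of 1.08 and 1.81 were 0.64 and 0.99, under 2-fold in both suffixes. The signalling receptor gene Il1r1 had 6 UMIs in the 5712 neutrophils of suffix 1 and 1 UMI in suffix 2. Cxcr4, the receptor that retains neutrophils in marrow and marks aged ones, stood at 6.88 against 14.9, and its log2 ratio of -1.12 was 0.09 without calprotectin. In suffix 2 it stood at 7.58 against 11.8. Of 10 adhesion genes, 2 were higher in each suffix, among them the P-selectin gene Selp (0.633 against 0.140 and 0.494 against 0.148), and 6 and 5 were lower.

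Among interleukin-1 family ligands, Il1f9, the interleukin-36 gamma gene, stood furthest from other cells, at 7.89 against 0.760 and 9.64 against 0.359. Il1b stood at 60.1 and 97.1 in neutrophils, and other cells held 88.3 and 67.1. An Il1b UMI was found in 81.2% and 88.4% of thinned neutrophils and in 19.0% and 25.4% of B cells. The receptor antagonist gene Il1rn stood at 6.78 against 5.83 and 17.9 against 7.24, and Il1a at 2.78 against 7.38 and 6.03 against 6.71. All 4 of these genes lie on chromosome 2. Without calprotectin the log2 ratios of Il1b were 0.65 and 1.75 and those of Il1a were -0.20 and 1.06.

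Of 8 genes linked with immunosuppressive neutrophils, 4 were higher in each suffix, and 2 and 1 were lower. The 4 were Lcn2, Il1f9, Csf1 and the defining marker Cxcr2. Among all genes, 3.04% and 3.6% were higher and 77.9% and 77.7% lower. Csf1, the macrophage growth factor gene, stood at 4.25 against 1.51 and 7.35 against 1.38. Ptgs2, the inducible cyclooxygenase of prostaglandin synthesis, stood at 3.42 against 14.3 and 10.4 against 14.8. Its log2 ratios of -2.06 and -0.50 were -0.86 and 0.72 without calprotectin, so its direction in suffix 2 depends on the scale. Thinned neutrophils held a Ptgs2 UMI in 12.8% and 34.6% of cells, and B cells in 2.91% and 7.22%. None of the 6 measured eicosanoid genes, Ptgs2 included, was called higher. Ptgs1 stood at 0.387 and 0.290 and the phospholipase gene Pla2g4a at 0.0935 and 0.167, with log2 ratios of -2.98 and -2.40, and of -4.07 and -3.06.

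Lipid and metabolic genes were mixed. G0s2 apart, the lipid droplet coat gene Plin2 stood at 33.4 against 18.5 and 33.3 against 14.3, and a Plin2 UMI was found in 91.2% and 86.8% of thinned neutrophils and in 8.40% and 14.4% of B cells. The fatty acid binding genes Fabp4 and Fabp5 and the scavenger receptor gene Cd36 were lower in both suffixes. Without calprotectin Fabp5 was within 2-fold, at log2 ratios of -0.38 and -0.65. Of 6 glycolysis and hypoxia genes, 0 and 1 were higher and 2 were lower in each. The higher one was Pfkfb3, a regulator of glycolytic flux, with log2 ratios of 0.75 and 1.43. These were 0.34 and 0.75 against macrophage and monocyte names alone. Of 8 oxidase and redox genes, 1 and 0 were higher and 3 and 2 lower. The shares over all genes were 3.04% and 3.6% higher and 77.9% and 77.7% lower. The peroxiredoxin gene Prdx1 stood at 1.77 against 24.1 and 2.06 against 26.1.

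Of 9 myeloid transcription factor genes, Id1 alone was higher in suffix 1 and Id1 and Cebpb in suffix 2, and 6 and 5 were lower. The shares over all genes were 3.04% and 3.6% higher and 77.9% and 77.7% lower. Id1, an inhibitor of differentiation factors, stood at 9.35 against 2.25 and 7.10 against 1.52. Cebpb, a driver of emergency granulopoiesis, stood at 167 against 105 and 168 against 69.8, and had a UMI in 99.9% and 99.7% of thinned neutrophils. Spi1, the gene of PU.1, stood at 14.5 against 12.2 and 11 against 11.4, with log2 ratios of 0.25 and -0.05 that were 1.46 and 1.17 without calprotectin. Klf4, which directs monocyte differentiation, stood at 0.580 against 12.6 and 1.04 against 10.6, and Runx3 at 0.377 against 9.17 and 0.802 against 8.53. Of 7 immediate early and stress genes, 6 and 4 were lower and 0 higher, beside 77.9% and 77.7% lower among all genes, and their median log2 ratios of -2.05 and -1.05 were -0.85 and 0.16 without calprotectin. The 13 measured cell cycle genes were lower in both suffixes, with median log2 ratios of -4.82 and -4.23. Stmn1 stood at 0.327 against 8.89 and 0.370 against 9.12. The 13 measured ribosomal protein genes were lower as well, with medians of -3.42 and -3.26 that were -2.21 and -2.05 without calprotectin. Rpl12 stood at 7.90 against 128 and 6.47 against 90.3.

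Other S100 genes did not follow S100a8 and S100a9 as a family. S100a6 stood at 333 against 91.6 and 286 against 98.9, and S100a11 at 145 against 49.5 and 112 against 45.8. S100a4 stood at 1.77 against 50.8 and 2.79 against 107, and S100a10, the partner of annexin A2, at 1.44 against 39.7 and 2.47 against 48.2. Of 10 measured S100 genes beside the calprotectin pair, 3 were higher and 6 lower in suffix 1. Of 8 in suffix 2, 2 were higher and 6 lower. Among all genes, 3.04% and 3.6% were higher and 77.9% and 77.7% lower. In Fc receptors, Fcer1g, the shared signalling chain, stood at 72.1 against 67.7 and 70.5 against 64.0, and the low-affinity receptor gene Fcgr3 at 15.6 against 17.3 and 15.6 against 12.7. The high-affinity receptor gene Fcgr1 stood at 0.155 against 4.57 and 0.259 against 3.67, and the inhibitory Fcgr2b at 1.02 against 12.7 and 1.52 against 13.8.

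Of 16 interferon-stimulated genes, 0 were higher and 12 lower in suffix 1, and 1 was higher and 10 lower in suffix 2, beside 77.9% and 77.7% lower among all genes. Their median log2 ratio was -3.65 and -1.40, below the median of all genes in suffix 1 and above it in suffix 2. Members of the Ifi200 cluster made up most of the lower ones, such as Ifi204 (0.0685 against 2.86 and 0.271 against 2.40). Isg15 stood at 2.78 against 5.08 and 7.73 against 4.49, and the guanylate-binding protein gene Gbp2 at 1.97 against 1.63 and 5.55 against 2.10. For survival genes, Bcl2l1 was higher in both suffixes (2.90 against 1.41 and 2.96 against 1.24), and Mcl1, on which neutrophil survival is known to depend, stood at 61.5 against 45.6 and 68.8 against 34.6. Bcl2 stood at 0.102 against 1.92 and 0.0740 against 1.26. Of 14 myeloid signalling genes 5 and 6 were lower and 0 and 2 higher, among the higher ones the Src-family kinase gene Fgr in suffix 2 (2.90 against 1.40). Of 8 pattern recognition genes 4 and 5 were lower and 0 and 1 higher, the 1 being Tlr4 in suffix 2 (2.50 against 0.857). The shares over all genes were 3.04% and 3.6% higher and 77.9% and 77.7% lower.

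Large ratios were also found for genes of the remodelling list and for genes on no list. Hdc, the histidine decarboxylase that makes histamine, stood at 15.6 against 1.97 and 17.8 against 1.15, with a UMI in 73.1% and 70.3% of thinned neutrophils and in 2.17% and 2.94% of B cells. Slc40a1, the iron exporter ferroportin (chr1:45908068-45926523, minus strand, GRCm38), stood at 2.09 against 0.253 and 2.32 against 0.171, and the metalloreductase gene Steap4 at 5.02 against 0.797 and 3.53 against 0.802. Dhrs9, a retinol dehydrogenase (chr2:69380445-69404533, plus strand), stood at 4.00 against 0.438 and 2.45 against 0.252. Low levels with high ratios were found for the potassium channel gene Kcnn3 (0.225 against 0.0288 and 0.228 against 0.0287), for Ambp (0.499 against 0.0693 and 0.401 against 0.0201), and for Slc32a1, known as the vesicular transporter of inhibitory neurons (0.307 against 0.0479 and 0.611 against 0.0604). Of 10 genes on the remodelling and coagulation list, 3 were higher in each suffix (Hdc, F3 and F5), and 5 and 7 were lower. The shares over all genes were 3.04% and 3.6% higher and 77.9% and 77.7% lower. F3, tissue factor, stood at 1.39 against 0.529 and 2.76 against 0.526, and F5, coagulation factor V, at 0.761 against 0.357 and 0.716 against 0.188. The log2 ratios of F5, 1.09 and 1.93, were 0.46 and 1.29 against macrophage and monocyte names alone. Among the lower ones, the protein C receptor gene Procr had log2 ratios of -3.73 and -3.28, and the thrombomodulin gene Thbd of -5.06 and -4.09.

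Neutrophils were set beside the 3 myeloid names nearest in lineage or calprotectin level. Mono_Ly6c2 had 368 and 149 cells with counts, Mono_Nr4a1 231 and 26, and Macro_Mgl2 256 and 71. The median calprotectin share of their cells was at most 0.882%, but single cells reached 74.6% in Macro_Mgl2 and 51.5% in Mono_Nr4a1. The part of such cells in the pooled levels of those names was not tested. Against Mono_Ly6c2, 5.11% of 2347 genes were called higher in neutrophils and 65.1% lower in suffix 1, and 4.87% and 61% of 1498 in suffix 2. Against Mono_Nr4a1 the shares were 7.2% and 65.1% of 2306, and 9.49% and 51.9% of 1286. Against Macro_Mgl2 they were 5.29% and 67% of 2648, and 6.44% and 62.4% of 1754. In both suffixes 51, 73 and 74 genes were higher against the 3 names in turn, and 3 genes were called in opposite directions against Mono_Nr4a1 and 0 against the others.

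Set against Mono_Ly6c2 monocytes, several neutrophil genes were higher. Csf3r stood at 23.0 against 6.73 and 20.9 against 2.36. Lcn2 stood at 151 against 11.1 and 87.6 against 1.77, G0s2 at 88.3 against 12.6 and 132 against 4.31, and Mmp9 at 17.3 against 2.63 and 14.2 against 3.76. Thbs1, Il6 and Thbd were named because their ratios were among the lowest. Thbs1, the gene of the matrix protein thrombospondin, stood at 0.140 against 57.2 and 0.352 against 32.6, with a log2 ratio of -8.68 [-8.92, -8.44] in suffix 1. Il6 stood at 0.0139 against 2.8 and 0.0123 against 3.43, and the thrombomodulin gene Thbd at 0.0167 against 3.66 and 0.0247 against 2.84. Several inflammatory genes were shared but lower. Ptgs2 stood at 3.42 against 41.0 and 10.4 against 55.8, Il1b at 60.1 against 154 and 97.1 against 189, and Il1a at 2.78 against 17.2 and 6.03 against 22.2. Without calprotectin the Il1b log2 ratios of -1.36 and -0.96 were -0.16 and 0.26. Cebpb and Spi1 lay within 2-fold of Mono_Ly6c2 in both suffixes.

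Mono_Nr4a1 cells, named for the factor of patrolling monocytes, stood higher than neutrophils in Thbs1 (0.140 in neutrophils against 30.6, and 0.352 against 29.5) and S100a4 (1.77 against 111 and 2.79 against 116). Klf4 stood at 0.580 against 22.6 and 1.04 against 27.8, and Chil3 at 3.01 against 55.1 and 1.04 against 10.4. Chil1 stood at 11.2 against 0.298 in suffix 1, and in suffix 2 at 8.13 against 0.146, which was 1 UMI. With calprotectin in the totals, Il1b was within 2-fold (log2 ratios of 0.16 and 0.92), as was Ptgs2 (-0.63 and -0.23). Calprotectin took 58.5% and 57.7% of pooled UMIs in neutrophils and 4.36% and 7.59% in Mono_Nr4a1. Without it these ratios are therefore higher. Against Macro_Mgl2 the genes named for the lowest ratios were mitotic. Ccna2, cyclin A, stood at 0.0380 against 4.51 and 0.0432 against 4.81, the kinetochore motor gene Cenpe at 0.0259 against 4.30 and 0.0370 against 4.21, and Stmn1 at 0.327 against 23.9 and 0.370 against 21.3. Lcn2 in neutrophils was 1.46 and 1.51 log2 units above that of Macro_Mgl2, in which calprotectin made 12.1% and 7.49% of pooled UMIs.

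**Figure D3:**
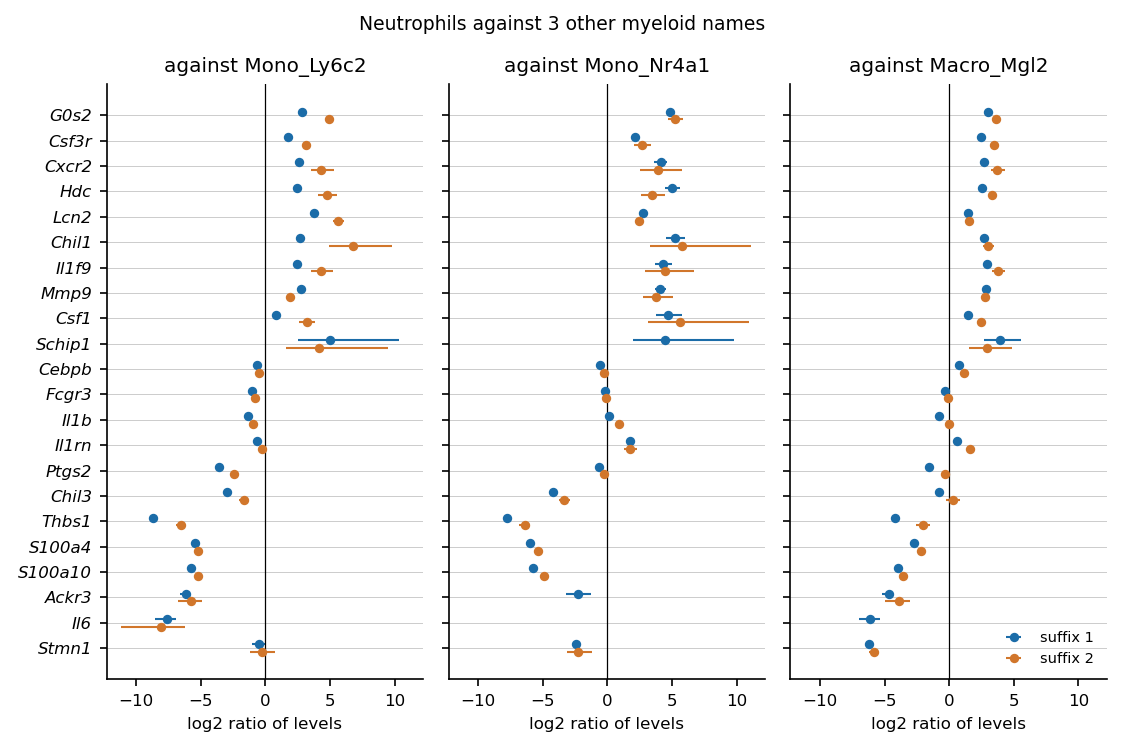
Log2 ratio of the level in neutrophils to that in Mono_Ly6c2 (left), Mono_Nr4a1 (middle) and Macro_Mgl2 (right) for 22 genes, with exact 95% intervals of counting error, in suffix 1 (blue) and suffix 2 (orange). Csf3r, Cxcr2, G0s2 and Lcn2 lie right of 0 in all panels, S100a4 and S100a10 left of 0, and Stmn1 lies at -6.19 and -5.84 beside Macro_Mgl2; genes with no UMI on a side have no point.

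To describe variation within the name, neutrophils of each suffix were ranked by their calprotectin share and cut into quintiles, a split chosen after the data were seen. Quintiles are ranges of a continuous measure and not cell types, and 26.3% and 21.7% of cells lay within 2 percentage points of a cut. The median share was 16.4% in the lowest and 69.4% in the highest quintile of suffix 1, and 9.38% and 70.8% in suffix 2. Depth moved with it, from a median of 554 to 3878.5 counted UMIs and from 491 to 3450. Without S100a8 and S100a9 it moved from 464 to 1147 and from 440 to 1049. Levels in quintiles are per 10000 UMIs of genes other than S100a8 and S100a9. Of 1856 genes in suffix 1, 149 (8.03%) were at least 2-fold higher in the highest quintile and 634 (34.2%) at least 2-fold lower, with a median log2 ratio of -0.60 over all genes. Of 780 genes in suffix 2 these were 90 (11.5%) and 187 (24%), with a median of -0.36. Of the 780, 64 were higher and 154 lower in both suffixes, and 0 were opposite.

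Most of the granule and antimicrobial genes with enough UMIs were higher at a high calprotectin share. Lcn2 stood at 39.8, 107, 218, 363 and 685 from the lowest to the highest quintile of suffix 1, a log2 ratio of 4.11 [4.05, 4.16], and at 14.5, 29.3, 48.9, 138 and 526 in suffix 2. In cells thinned to 400 UMIs, an Lcn2 UMI was found in 55.3% of the lowest and 99.7% of the highest quintile of suffix 1, and in 26.3% and 98.0% in suffix 2. Padi4 went from 0.154 to 6.51 in suffix 1, and in suffix 2 from 0 UMIs in the lowest quintile to a level of 4.79. Chil3 stood between 1.62 and 4.32 in the lower 4 quintiles of suffix 1 and at 16.6 in the highest, and in suffix 2 at 0.929 or less and then 7. Mmp9 went from 22.5 to 58.8 and from 21.4 to 47.0. Of 6 granule and antimicrobial genes with enough UMIs, 4 were higher in the highest quintile of each suffix, 2 within 2-fold and 0 lower. Among all genes, 8.03% and 11.5% were higher. Slpi, an inhibitor of neutrophil elastase, was even, with log2 ratios of -0.08 and -0.16.

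Genes off the granule list went the same way. S100a6 went from 141 to 1157 and from 104 to 1291, S100a11 from 109 to 478 and from 82.3 to 425, and Cd52, a glycoprotein of the leukocyte surface, from 52.9 to 221 and from 61.0 to 227. Mgst2, a glutathione transferase of leukotriene synthesis, went from 0.185 to 5.04 and from 0.279 to 3.52. The pentose phosphate enzyme gene Pgd went from 6.63 to 27.8 and from 4.00 to 19.9, the glutathione synthesis gene Gclm from 2.09 to 11.5 and from 2.14 to 7.51, and the glycogen primer gene Gyg from 3.43 to 14.5 and from 2.23 to 13.3. Spi1 went from 20.0 to 42.9 and from 14 to 37.0. S100a6, S100a11, Lcn2 and Cd52 fill part of the denominator, and with these out of the total as well, 232 and 140 genes were higher in the highest quintile.

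Other genes stood highest where calprotectin was low. Il1a stood at 23.7, 11.6, 5.06, 2.26 and 0.995 across the quintiles of suffix 1, a log2 ratio of -4.57 [-4.83, -4.33], and at 31.4, 26.6, 15, 8.22 and 2.96 in suffix 2 (-3.41 [-3.82, -3.02]). Ptgs2 stood at 28.3, 16.8, 5.67, 2.75 and 0.914, and at 49.6, 46.2, 31.6, 14.7 and 4.09. Among thinned cells, a Ptgs2 UMI was found in 28.5% of the lowest and 2.69% of the highest quintile of suffix 1, and in 50% and 11.8% in suffix 2. Il1b went from 270 to 47.7 and from 285 to 102, with 331 in the second quintile of suffix 2. Il1rn went from 44.2 to 4.13 and from 78.8 to 12.6, Csf1 from 22.9 to 1.90 and from 26.4 to 4.88, and F3 from 9.77 to 0.538 and from 13 to 1.6. Of the 4 interleukin-1 family ligands 3 were lower in the highest quintile of each suffix, and Il1f9 was not (log2 ratios of -0.36 and 0.11). Of the immediate early and stress genes, 7 of 7 in suffix 1 and 3 of 7 in suffix 2 were lower, and of the eicosanoid genes with enough UMIs 1 of 4 and 1 of 1, Ptgs2, beside 34.2% and 24% of all genes. The glucose transporter gene Slc2a1 (-1.47 and -1.61), the stress factor Atf3 (-2.27 and -1.49), the chaperone gene Hspa5 (-2.33 and -1.70), Zeb2 (-2.37 and -2.37) and Cxcr4 (-1.76 and -1.75) were lower in both suffixes.

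The sequence upstream of 2 genes of this second set is shown beside that of S100a8 and S100a9, because their transcripts stood high where calprotectin stood low. Windows, strand and capitals are as above.
Il1a, chr2:129309973-129310222, minus strand: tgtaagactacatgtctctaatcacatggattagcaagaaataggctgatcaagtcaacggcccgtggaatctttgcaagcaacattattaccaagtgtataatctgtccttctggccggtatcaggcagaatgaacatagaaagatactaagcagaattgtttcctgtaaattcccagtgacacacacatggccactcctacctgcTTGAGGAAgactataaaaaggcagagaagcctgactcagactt
Ptgs2, chr1:150099781-150100030, plus strand: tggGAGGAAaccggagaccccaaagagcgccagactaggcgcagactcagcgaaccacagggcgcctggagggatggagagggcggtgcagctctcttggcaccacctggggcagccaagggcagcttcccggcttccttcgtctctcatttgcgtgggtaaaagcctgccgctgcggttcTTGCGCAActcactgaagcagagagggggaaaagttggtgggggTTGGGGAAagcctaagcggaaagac
The C/EBP and PU.1 letters thus occur in both sets. In Il1a they overlap, 35 bases from the end of the window, and 1 match to the AP-1 letters TGANTCA, left in lower case, lies 5 bases from its end. Of all windows of 250 bases, 6.75% hold the AP-1 letters. In Ptgs2 the C/EBP matches lie 61 and 17 bases from the end.

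The receptors that define the cells varied less. Csf3r stood at 46.6, 65.6, 70.4, 66.1 and 40.5 in suffix 1, highest in the middle quintile, and at 33.5, 55.5, 60.2, 60.8 and 40.7 in suffix 2. Cxcr2 went from 16 to 29.6 and from 10.1 to 23.5, with its highest level in the fourth quintile of each suffix. G0s2 stood between 157 and 281 and between 238 and 383, Hdc had log2 ratios of 0.01 and 0.11, and Fcer1g stood between 149 and 181 and between 126 and 188. The highest quintile of Csf3r, G0s2, Hdc and Mcl1 was below the fourth in both suffixes. These levels depend on the scale. With S100a6, S100a11, Lcn2 and Cd52 also out of the total, log2 ratios of the highest to the lowest quintile were higher. Those of Csf3r went from -0.20 and 0.28 to 0.17 and 0.65, and of G0s2 from -0.58 and -0.27 to -0.21 and 0.10. Those of Hdc became 0.39 and 0.48, and of Mcl1 -0.34 and -0.32. The fourth quintile was not computed on that scale. Among interferon genes, Gbp2 went down from 10.3 to 1.59 in suffix 1, and in suffix 2 stood at 9.76, 18.2, 18.3, 18.6 and 5.87.

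**Figure D4:**
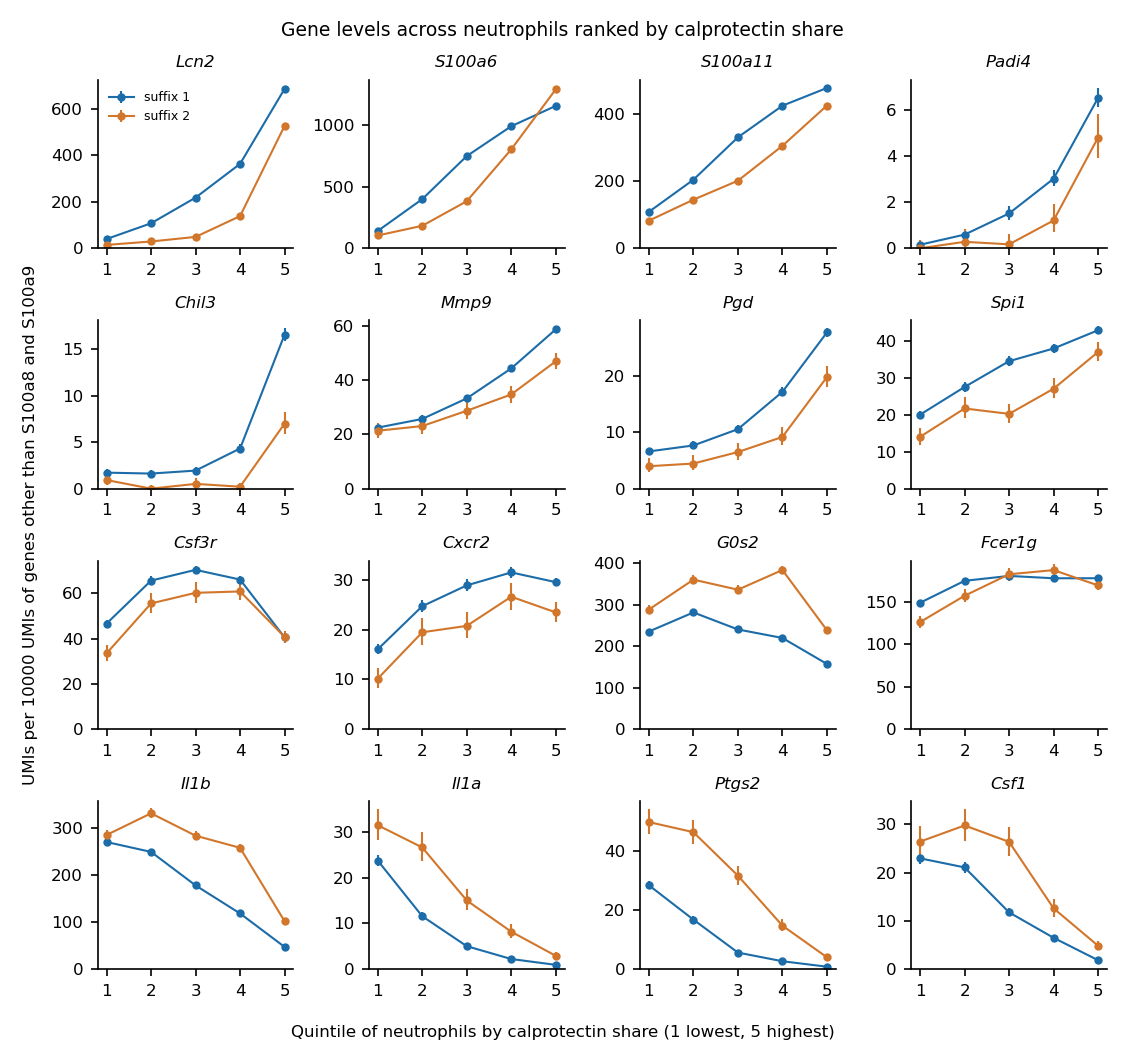
Levels of 16 genes in UMIs per 10000 UMIs of genes other than S100a8 and S100a9 (y axis, each from 0) across quintiles of neutrophils by calprotectin share (x axis, 1 lowest to 5 highest), with exact Poisson 95% intervals, in suffix 1 (blue) and suffix 2 (orange). Lcn2 climbs to 685 and 526 in the highest quintile, Csf3r peaks between, and Il1a, Ptgs2, Il1b and Csf1 are lowest in the highest quintile.

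Transcripts of other cell types moved with the calprotectin share too. The macrophage list summed to 49.3 in the lowest and 8.36 in the highest quintile of suffix 1 and to 48.5 and 8.45 in suffix 2, although the median cell held 1 such UMI in each. The monocyte list went from 12.8 to 1.70 and from 25.8 to 3.24, and the T cell list from 8.89 to 0.215 and from 6.97 to 0.564, with a median of 0 UMIs in each. At least 2 UMIs of any other type's list were found in 25.6% of the lowest and 29.5% of the highest quintile of suffix 1, and in 36.2% and 33.0% in suffix 2. Without all cells that held such UMIs, the log2 ratio of the highest to the lowest quintile was -4.66 and -3.85 for Il1a, -5.08 and -3.74 for Ptgs2, -2.59 and -1.58 for Il1b, -3.84 and -2.74 for Csf1, and 3.96 and 4.85 for Lcn2, each within 1 log2 unit of its value in all cells. Genes of monocytes and macrophages came closer to 0. Fn1 and Klf4 are on the monocyte list by which cells were left out, so leaving those cells out removed their UMIs by design. S100a4 and S100a10 are on no marker list. Fn1 went from -2.59 and -3.40 to -1.10 and -1.44, S100a4 from -2.96 and -2.41 to -1.29 and -1.36, S100a10 from -3.07 and -2.74 to -1.22 and -1.15, and Klf4 from -3.79 and -2.90 to -2.75 and -1.82.

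Neutrophils were also split by whether a thinned cell held a UMI of an index gene, with that gene left out of the total. In suffix 1, 618 cells held a Ptgs2 UMI and 4213 did not, and in suffix 2, 263 and 497. Cells with Ptgs2 stood higher in Il1a (37.7 against 4.15 and 34.2 against 8.35), F3 (19.7 against 1.82 and 14.8 against 4.53), Il1rn (57.7 against 14.3 and 69.5 against 37.9) and Il1b (397 against 145 and 373 against 226). They stood lower in Lcn2 (115 against 284 and 75.4 against 180) and S100a6 (286 against 710 and 328 against 670). Csf3r stood at 51.1 against 65.3 and 44.9 against 57.3, and the macrophage list at 20.9 against 13.7 and 18.1 against 13.4. The monocyte list stood at 4.2 against 3.09 and 9.39 against 5.08. The part of both lists in this split was not tested.

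The split by Lcn2 was made in the same way. In suffix 1, 4051 thinned neutrophils held an Lcn2 UMI and 780 did not, and in suffix 2, 474 and 286. Cells with Lcn2 stood higher in S100a6 (759 against 240 and 752 against 244), and in suffix 1 in Padi4 (2.41 against 0.192) and Chil3 (4.92 against 0.833), which had too few UMIs for the split in suffix 2. They stood lower in Ptgs2 (7.01 against 25.5 and 22.1 against 37.5) and Il1a (6.28 against 20.5 and 14 against 23.1). Csf3r differed little (log2 ratios of 0.09 and 0.04). The macrophage list stood at 13.7 with Lcn2 against 21.7 without, and at 13.9 against 17.3, and the monocyte list at 2.98 against 4.97 and 5.02 against 9.27. Cells with Cxcr2 (2920 and 392) were lower in Il1a (log2 ratios of -1.67 and -1.06) and Ptgs2 (-1.52 and -1.12) than those without. Cells with Il1b (3924 and 672) were higher in Il1a (4.40 and 3.32) and Ptgs2 (2.42 and 2.02) and lower in Lcn2 (-1.12 and -2.16). The macrophage list stood at 15.9 with Il1b against 10.5 without and 15.7 against 13.6, at 13.5 with Cxcr2 against 16.5 without and 13.3 against 16.8, and at 10.5 with Chil3 against 15.1 without in suffix 1. The monocyte list stood at 3.5 against 2.34 and 7.03 against 4.55 for Il1b, at 3.05 against 3.51 and 5.64 against 7.54 for Cxcr2, and at 2.22 against 3.33 for Chil3 in suffix 1. The part of these transcripts in the splits was not tested. The 453 cells with Chil3 in suffix 1 were higher in Lcn2 (632 against 224) and in Padi4 (5.43 against 1.63).

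**Figure D5:**
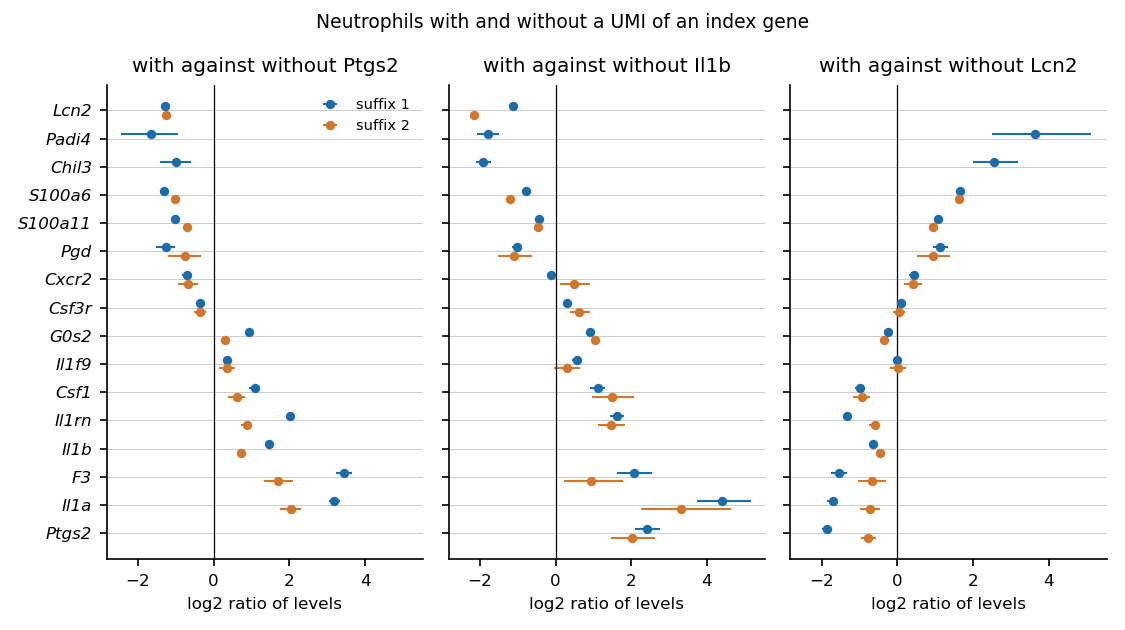
Log2 ratio of gene levels in thinned neutrophils with a UMI of Ptgs2 (left), Il1b (middle) or Lcn2 (right) to those without, with exact 95% intervals of counting error, in suffix 1 (blue) and suffix 2 (orange). Il1a, F3 and Il1rn lie right of 0 beside Ptgs2 and left of 0 beside Lcn2, while S100a6 and S100a11 do the reverse and Csf3r stays within 1 log2 unit of 0; genes under 50 UMIs have no point.

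The spread between cells differed between genes. After thinning, counts that vary by sampling alone have a variance close to their mean. The ratio of variance to mean was 20.1 and 27.2 for S100a6, 15.7 and 16.7 for G0s2, 14.6 and 11 for Il1b, 13.2 and 17.6 for Lcn2, and 11.5 and 7.30 for Il1a. Ptgs2 followed at 7.79 and 9.27 and the immediate early gene Jun at 6.21 and 6.78. Slpi stood at 6.09 and 5.11, Cebpb at 5.28 and 5.40, and S100a11 at 5.19 and 5.28. Csf3r stood at 1.61 and 1.62. At an equal relative spread this ratio is larger for a gene of higher level. Levels were not matched, so the values do not rank these genes by relative spread. G0s2 thus had a variance well above its mean while its quintile levels stayed within 2-fold in suffix 1 and in suffix 2.

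Levels in the neutrophils of the 2 suffixes are set side by side as values of 2 samples whose groups are unknown, and no comparison is made. Suffix 2 held Il1b at 97.1, Il1rn at 17.9, Ptgs2 at 10.4, Il1a at 6.03, Isg15 at 7.73, Gbp2 at 5.55 and Lcn2 at 87.6. Suffix 1 held the same genes at 60.1, 6.78, 3.42, 2.78, 2.78, 1.97 and 151. Csf3r stood at 20.9 and 23.0 and Cebpb at 168 and 167 in the same order.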

How the data were processed

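Members and gene lists were chosen with earlier results of these data known. Counts are UMIs per gene and cell as deposited by the authors, and cell names are theirs. The submitters' processing notes name Cell Ranger, Seurat and the build GRCm38 (mm10), with no roles or versions. How cells were named or filtered is not stated there. The table analysed held 4099 complete rows and 1 incomplete row, which was left out. By symbol, 4067 rows matched GENCODE M21. The 21 gene lists hold 312 genes, of which 174 had a row, and 13 of 15 marker lists had a measured member (those of platelets and endothelium had 0).

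Levels are UMIs summed over the neutrophils of 1 suffix per 10000 counted UMIs, with exact Poisson intervals. Shares have exact Clopper-Pearson intervals and ratios exact conditional binomial intervals, all at 95%. Reads behind a UMI were collapsed by the authors, so intervals treat UMIs as molecules and cover counting error only. No p-value was computed, since cells of 1 library do not replicate it, and the planned test of wild-type against Mif-depleted samples was not run because no label ties a barcode suffix to a sample. Thinning drew 400 UMIs of genes other than S100a8 and S100a9 from each cell without replacement, with a fixed seed. The named genes are the list members, the 15 highest and 8 lowest ratios against other cells (the smaller of both suffixes), the 15 highest levels, the 5 highest and 5 lowest against each of 3 myeloid names, the 10 highest ratios of variance to mean, and the leading genes of the quintiles. The text names part of them, and some others are left out of it. Computation of ratios was tested on simulated data. Software comprised pandas 2.3.3 and numpy 2.4.6 under Python 3.11.15, with exact intervals from scipy 1.17.1 and plots from matplotlib 3.10.9.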

Additional observations from a re-analysis of the deposited data

Results flagged for a closer look

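The last row of the count table, that of Nat8l, breaks off and gives values for a part of the cells, so it entered no level. It held 6 UMIs over the 5712 neutrophils of suffix 1, all of which had a value, and 0 UMIs over the 264 neutrophils of suffix 2 with a value. This signal lies in data outside the main measurement and has no control samples beside it. The share of neutrophils over the 4 suffixes gave a Dixon ratio of 0.507, under the 95% critical value for 4 samples.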

How the results depend on the processing

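No paired analysis was possible because no label ties a barcode suffix to a sample, so the planned replicate block, leave-one-out fits and second tool were not run. In cells with counts alone, neutrophils took 28.7% of suffix 2. Without S100a8 and S100a9 in the totals, 373 and 327 genes were higher against other cells in suffixes 1 and 2 and 1591 were lower in suffix 2. On that scale 364 and 255 were higher and 676 and 340 lower against Mono_Ly6c2, 396 and 297 higher and 683 and 255 lower against Mono_Nr4a1, and 389 and 306 higher and 1131 and 599 lower against Macro_Mgl2, and the log2 ratio of Cxcr4 in suffix 1 turned to 0.090. These counts move because a constant is added to every log2 ratio. In UMIs per cell 53 genes were higher against other cells in suffix 2 and 12 and 20 against Macro_Mgl2. A 4-fold call gave 52 and 48, and no minimum of UMIs 199 in suffix 2. Against macrophage and monocyte names alone, suffix 2 log2 ratios turned to -0.093 for Chil3, 1.75 for Mmp9 and 0.38 for Slpi. The quintile alternatives were chosen after seeing the data. With S100a6, S100a11, Lcn2 and Cd52 also out of the total, 232 and 140 genes were higher and 121 lower in suffix 2. Thinned, 372 were lower in suffix 1, and 48 higher and 88 lower in suffix 2. Without cells holding other types' markers, 110 were lower in suffix 2. Where fewer cells or UMIs enter, fewer genes reach 50 UMIs, and other causes were not tested. Depth limits suffix 2 more than suffix 1, with 3087 against 3514 genes at 50 UMIs or more over both sides.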
